A study of Homo sapiens with 16 samples.

Results

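The 96 genes described here were selected on 3 measured values. Each count was scaled to CPM, the count per 1000000 counts of its library. A gene was chosen where its mean CPM over the 4 VOS1 libraries was below 1, its CPM in NOS1 replicate 1 was at least 10, and that value was at least 4 times its CPM in NOS1 replicate 3. These limits took 96 of 61228 gene rows, among them KRT7, VIM, CD44, BASP1 and OSMR. Values of VOS1 and of the NOS1 replicates 1 and 3 are therefore given as a description with no test, and the tests reported use the other 10 libraries; 1 alternative fit of all 16 libraries holds the selecting values and is named as such where its counts are given.

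The libraries are polyT-selected mRNA of Caco-2, a human colorectal carcinoma line that forms an enterocyte-like sheet, grown on a magnetically moved villus chip and labelled as 4 groups of 4: Static control, Physiological Swing, Pathological swing group and IBD induction. What was given to induce the IBD state, and for how long, is not stated by the labels used here. The table coded IBD holds the induced group and NOS1 was read as the static group by elimination, while VOS1 and VOS2 hold the swing groups in an order that no label gives. Nothing in the labels says that replicates were separate cultures, so p-values measure only the spread between these libraries.

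Simple epithelia of the intestine are built on keratins 8, 18, 19 and 20, whereas keratin 7 marks ducts, bladder and other epithelia and vimentin marks mesenchymal cells and many migratory carcinoma lines. CD44 binds hyaluronan and is coupled to the actin cortex by moesin, one of the ezrin, radixin and moesin proteins. OSMR and LIFR are the signalling partners of gp130 (IL6ST) for oncostatin M and leukaemia inhibitory factor.

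Total counts per library ran from 15078620 to 28148186, and no pair of libraries within a table agreed within sampling noise. Counts and FPKM together gave the feature length behind each value: in NOS1 it lay within 1% of the whole gene span for 81 of 94 members, and in VOS1 its median was 12.7% of that length over 62 members, against 16.3% over 16036 genes. VOS1 was thus counted over shorter features, so a level in VOS1 differs from the others in counting as well as in treatment; VIM had a length of 5176 bp in VOS1 and 9353 bp elsewhere, and KRT7 had 3999 bp and 19667 bp. The Caco-2 label was checked on 18 enterocyte and colon markers, of which 17 reached a mean of 1 CPM in NOS1. Their summed level was 3897 to 4599 CPM in NOS1, 4159 to 4529 in VOS2 and 4216 to 5864 in IBD, and their median ratio of NOS1 replicate 1 to replicate 3 was 0.824.

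Absence from VOS1, taken as a mean CPM below the ceiling, and variation in the static table went together in these files. CPM is not scaled for feature length, and FPKM did not show that absence in every member. GLI2 had an FPKM of 0.0644 to 0.116 in VOS1 against 0.0591 in NOS1 replicate 1, while VIM had 0 to 0.0412 against 9.90. SMOC1 had 0.042 to 0.065 in VOS1 against 0.013 to 0.037 in VOS2 and 0.018 to 0.031 in IBD. MGAT5B was also higher in VOS1 than in VOS2 and IBD by FPKM, and LIFR, PCAT1 and CPS1 overlapped them. BASP1 and CD44 stayed lower in VOS1, and the members on each side were not counted. A low VOS1 CPM of a single member below is therefore not by itself a lower level. Of 119 genes below the VOS1 ceiling and at or above the NOS1 replicate 1 floor, 96 also passed the ratio, which is 80.7%. Of 9147 genes above the VOS1 ceiling with the same floor, 116 did, or 1.27%. In the first group the ratio of NOS1 replicate 1 to replicate 3 had a median of 13.2 and left a gap: 23 genes lay under 2, 0 lay between 2 and 4, and 96 lay above. In the second group the median ratio was 1.02, and 214 genes lay between 2 and 4. These shares come from the values that made the choice and are a description.

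At the edges of the choice, HR (0.979 CPM), CARD14 (0.966 CPM) and CPS1 (0.944 CPM) had the highest VOS1 means inside, and MAMLD1 (1.02 CPM), STOM (1.04 CPM) and H19 (1.11 CPM) lay just outside. In NOS1 replicate 1, CTSF stood at 10.04 CPM and ARHGAP31 and COL4A4 at 10.14 CPM inside, while CHST2 at 9.99, PARP8 at 9.89 and CHST11 at 9.74 CPM fell outside. The smallest ratios inside were 4.45 for CASP1, 4.79 for ARHGAP31 and 5.25 for PSMB9, and the largest outside were 1.84 for GNGT1, 1.83 for ENSG00000283977 and 1.47 for C1QTNF3-AMACR. GPRIN3 had 0 counts in NOS1 replicate 3.

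The members rose and fell together in libraries that the choice did not use. As a median percentage of NOS1 replicate 1, their level was 17.0% in NOS1 replicate 2 and 62.7% in replicate 4. It was 15.4%, 6.11%, 11.7% and 14.5% in VOS2 replicates 1 to 4, and 10.9%, 14.2%, 9.55% and 16.3% in IBD replicates 1 to 4. The means were 11.9% ± 4.18 in VOS2 and 12.7% ± 3.08 in IBD (SD, n = 4 each). Because the choice required NOS1 replicate 1 to be high, the order among the other 10 libraries is what it left free, not their distance from that replicate. In bulk RNA, fewer cells of a kind and less RNA per cell cannot be told apart.

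**Figure D1:**
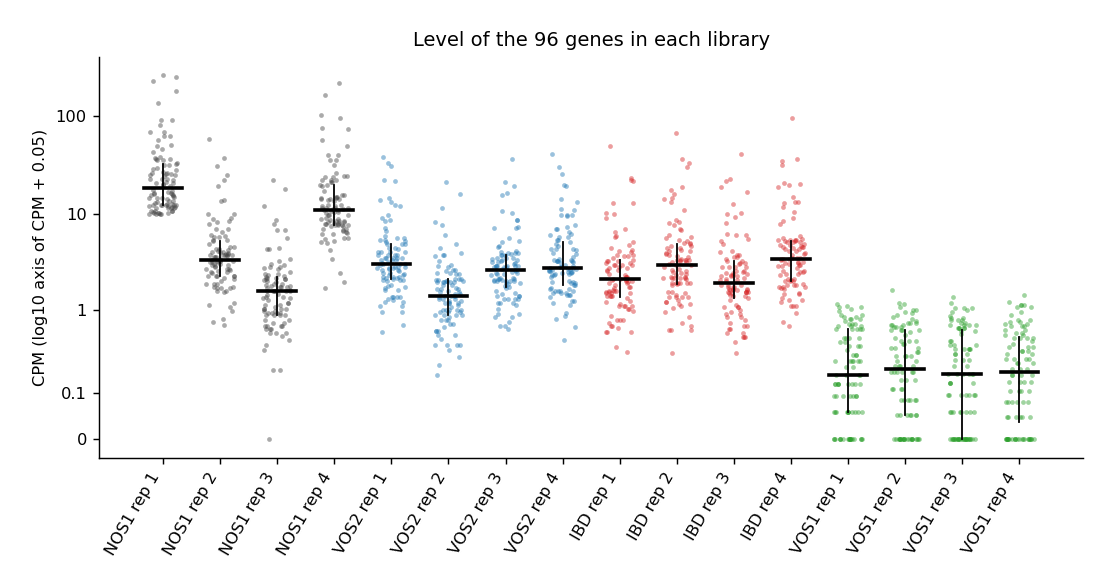
CPM of each of the 96 genes (points) in the 16 libraries on a log10 axis of CPM + 0.05, with the median (bar) and the quartiles (line). NOS1 replicates 1 and 4 lie highest. As a median percentage of replicate 1 over the genes, replicate 4 lies at 62.7%, VOS2 and IBD lie at 6.11% to 16.3%, and VOS1 lies lowest at under 1%. CPM is not scaled for feature length, and VOS1 was counted over shorter features.

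NOS1 replicate 4 exceeded NOS1 replicate 2 in 96 of 96 members, against 55.9% of 13255 genes at 1 CPM or more in at least 4 of the 10 libraries. It stood above all 8 VOS2 and IBD libraries in 94 members, against 17.7% of those genes. The exceptions were IGFBP3, highest in IBD replicate 3, and GPRIN3, highest in IBD replicate 4. NOS1 replicate 2 stood above all 8 in 29 members, against 13.4%, and lay within their range in 66. Of the 2 static libraries left free, only replicate 4 was set apart in nearly all members.

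Within VOS2, replicate 2 held the lowest value in 86 of 96 members, against 32.3% of the 13255 genes. The summed CPM of the members was 495, 213, 378 and 474 in VOS2 replicates 1 to 4, and 370.1, 531, 355 and 629.8 in IBD replicates 1 to 4. In IBD, replicate 4 was highest in 66 members and replicate 3 lowest in 56. Such counts were not made over all genes for IBD, so this order is not shown to be particular to the members. The 4 NOS1 sums were 3321, 546, 224 and 1973 CPM, and the VOS1 sums 30.5 to 32.1 CPM. Mitochondrial genes took 4.48% of counts in NOS1 replicate 4 and 5.74% in replicate 1, within the 3.92% to 6.94% of all libraries.

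The relative levels of the members were also alike between libraries. On log2(CPM + 0.5), Pearson's r with NOS1 replicate 1 over the 96 genes was 0.906 for NOS1 replicate 2, 0.899 for replicate 4, 0.796 to 0.881 for VOS2 and 0.807 to 0.870 for IBD. In VOS1 it was -0.08 to 0.01, but the choice used NOS1 replicate 1 and held every VOS1 mean below 1 CPM, which narrows the VOS1 range. With NOS1 replicate 4, which the choice did not use, r was 0.949 for NOS1 replicate 2, 0.810 to 0.938 for VOS2 and 0.777 to 0.863 for IBD. The same r was not computed for other genes, so these values are not shown to be particular to the members. These values are across genes, which are not independent replicates, and they share gene length and counting among the first 3 tables.

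**Figure D2:**
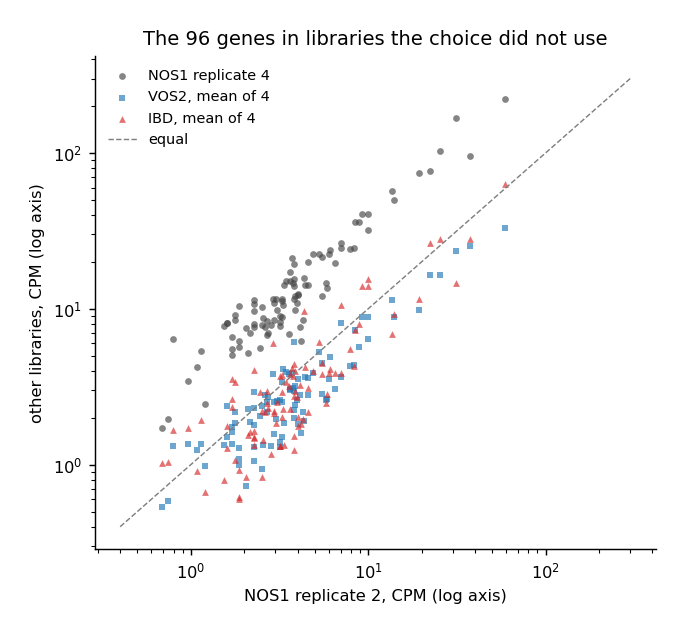
CPM of the 96 genes in NOS1 replicate 4 (circles) and the means of 4 VOS2 (squares) and 4 IBD (triangles) libraries against NOS1 replicate 2, both axes logarithmic, with the line of equal values. The circles lie above the line for 96 of 96 genes, while the squares and triangles lie on both sides of it.

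KRT7 (ENSG00000135480.15, chr12:52232520-52252186, + strand, GRCh38, GENCODE v29) encodes keratin 7, and its span overlaps 3 annotated genes, 1 of them protein-coding, so its counts are uncertain to that degree. KRT7 stood at 263, 59.2, 22.3 and 221 CPM in NOS1 replicates 1 to 4, at 38.7, 16.2, 36.4 and 41.1 CPM in the same order in VOS2, at 49.3, 67.1, 41.4 and 95.7 CPM in IBD and at 0.366 to 1.21 CPM in VOS1. NOS1 replicates 1 and 4 were far above all other libraries, and the IBD libraries lay just above the VOS2 libraries without overlap, since the lowest IBD value was 41.35 and the highest VOS2 value 41.12. The mean was 33.1 ± 11.4 CPM in VOS2 and 63.4 ± 24.1 in IBD (SD, n = 4), and the log2 fold change of IBD over VOS2 was 0.97 ± 0.28 (SE) with an adjusted p of 0.0631, which missed the threshold of 0.05 in edgeR's quasi-likelihood test. The edgeR adjusted p was 0.0410 without IBD replicate 2 and 0.0279 without IBD replicate 3, and it was also under the threshold with no filter on low counts, but under no other alternative tried.

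VIM (ENSG00000026025.15, chr10:17228259-17237593, + strand) encodes vimentin. In NOS1 replicates 1 to 4 VIM had 92.6, 19.4, 6.81 and 74.8 CPM, in VOS2 (same order) 14.0, 4.88, 10.9 and 9.82 CPM, in IBD 10.2, 13.2, 8.14 and 15.0 CPM and in VOS1 0 to 0.213 CPM. Again the static replicates 1 and 4 stood apart, and VOS2 and IBD overlapped. The log2 fold change of IBD over VOS2 was 0.26 ± 0.27 (SE, edgeR adjusted p = 0.631). Vimentin's intermediate filament relative INA, the neuronal alpha-internexin, had 13.2, 2.28, 0.671 and 9.69 CPM in NOS1 replicates 1 to 4 and 0 counts in the VOS1 libraries.

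The 250 bases before the RefSeq start sites (GRCh38.p14) of 4 members are printed because these members moved together and the windows hold no annotated exon. Capitals mark motif matches on either strand. The SP1 motif searched was GGGCGG, which occurs in the VIM, MSN and SMOC1 windows, with a pair of overlapping matches in SMOC1. The TATA box motif was TATAAA, found in SMOC1. The TEAD motif was GGAATG, found in LIFR. The AP-1 motif TGANTCA has no match in these 4 windows. The CDX motif TTTATG has none either. The VIM window is chr10:17227991-17228240 (+ strand), that of MSN chrX:65588127-65588376 (+), that of SMOC1 chr14:69879166-69879415 (+) and that of LIFR chr5:38595406-38595655 (- strand).
VIM: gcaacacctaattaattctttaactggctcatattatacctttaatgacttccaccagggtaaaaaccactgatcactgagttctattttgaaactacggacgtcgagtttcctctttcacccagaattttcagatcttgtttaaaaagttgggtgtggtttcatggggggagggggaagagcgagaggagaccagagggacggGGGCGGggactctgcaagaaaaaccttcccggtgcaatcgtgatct
MSN: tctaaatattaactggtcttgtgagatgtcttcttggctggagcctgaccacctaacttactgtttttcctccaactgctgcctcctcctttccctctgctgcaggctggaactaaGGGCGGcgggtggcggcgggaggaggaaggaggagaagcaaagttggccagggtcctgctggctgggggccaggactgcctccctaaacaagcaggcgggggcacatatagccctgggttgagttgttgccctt
SMOC1: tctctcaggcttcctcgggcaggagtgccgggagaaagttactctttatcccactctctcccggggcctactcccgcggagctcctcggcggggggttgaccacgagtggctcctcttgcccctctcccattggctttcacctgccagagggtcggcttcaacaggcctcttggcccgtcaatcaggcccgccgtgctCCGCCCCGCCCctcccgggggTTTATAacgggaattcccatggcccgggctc
LIFR: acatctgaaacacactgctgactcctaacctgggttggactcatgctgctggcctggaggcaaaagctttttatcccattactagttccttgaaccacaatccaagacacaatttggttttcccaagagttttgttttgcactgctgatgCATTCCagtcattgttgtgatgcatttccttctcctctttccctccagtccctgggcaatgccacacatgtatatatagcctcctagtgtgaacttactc
Promoters matched for 64 of 96 members. GGGCGG occurred in 65.6% of these against 42.3% of 27305 promoters, and the median number of CG pairs was 15 against 11. The 27305 promoters were not matched to the members in gene type or expression, so these gaps are not shown to be particular to the members. The other shares were 6.25% against 6.60% for AP-1, 7.81% against 11.9% for TEAD, 7.81% against 11.1% for the TATA box and 3.13% against 10.0% for CDX. A match is a run of letters and not a shown site of binding.

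MSN (moesin, chrX:65588377-65741931, + strand) had the same order. The MSN level was 137, 22.3, 7.89 and 76.5 CPM in NOS1 replicates 1 to 4, 22.4, 7.73, 16.5 and 19.5 CPM in VOS2 replicates 1 to 4, 23.6, 30.5, 17.0 and 35.4 CPM in IBD replicates 1 to 4 and 0.0457 to 0.178 CPM in VOS1. Every other library lay below NOS1 replicates 1 and 4, NOS1 replicate 2 lay within the range of VOS2 and IBD, and VOS2 and IBD overlapped. Its 2 relatives, which also join membrane to actin, did not share the static spread: EZR stood at 405, 401, 405 and 404 CPM and RDX at 186, 164, 191 and 178 CPM in NOS1 replicates 1 to 4. MSN had a log2 fold change of 0.72 ± 0.27 in IBD over VOS2 (SE, edgeR adjusted p = 0.154), while EZR fell by 0.25 ± 0.06 on the log2 scale with an adjusted p of 0.0419.

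BASP1 (ENSG00000176788.8, chr5:17065598-17276843, + strand) encodes a myristoylated actin-regulating protein of the inner membrane. Across replicates 1 to 4, BASP1 was measured at 182, 25.4, 8.62 and 102 CPM in NOS1, 21.7, 8.21, 15.6 and 19.9 CPM in VOS2, 22.2, 33.2, 19.2 and 37.1 CPM in IBD and 0 to 0.0446 CPM in VOS1. It had 0 counts in 3 of 4 VOS1 libraries. The highest values were those of NOS1 replicates 1 and 4, and IBD and VOS2 overlapped by IBD replicate 3. The log2 fold change of IBD over VOS2 was 0.80 ± 0.27 (SE, edgeR adjusted p = 0.1003). Its relatives MARCKS and MARCKSL1 stood at 158, 150.4, 192 and 179 and 225, 297, 281 and 244 CPM in NOS1 replicates 1 to 4, with replicate 3 not lowest in either.

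The other cytoskeletal and cortical members were MYO1G (a class I myosin of blood cells), ARHGAP31 (which switches off Rac1 and Cdc42), PKN3 (a kinase of the protein kinase N family), DZIP1 (a ciliary protein), NYAP2 and GPRIN3 (both neurite proteins). With KRT7, VIM, INA, MSN and BASP1 they make 11 members, from 10.1 to 263 CPM in NOS1 replicate 1. Their median level was 63.1% of it in NOS1 replicate 4, 16.3% in NOS1 replicate 2, 11.5% ± 3.83 in VOS2 and 14.9% ± 4.12 in IBD (SD over 4 libraries). In IBD against VOS2, 0 of 11 passed the test in either direction.

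**Figure D3:**
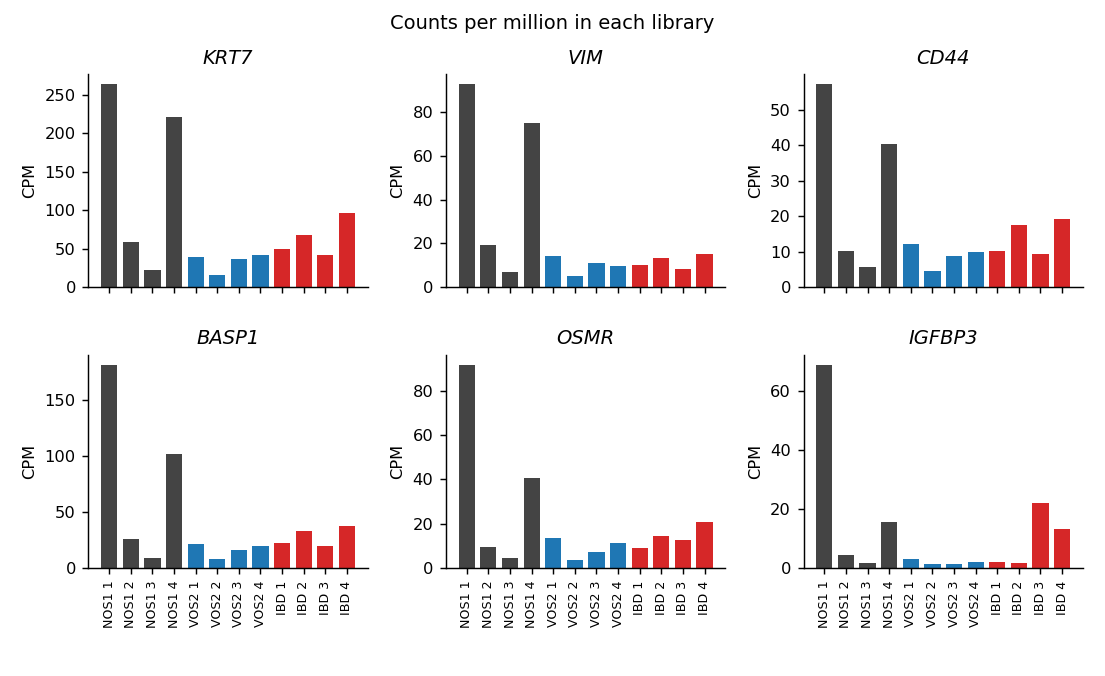
CPM of KRT7, VIM, CD44, BASP1, OSMR and IGFBP3 in each NOS1 (grey), VOS2 (blue) and IBD (red) library, 1 bar per library from 0. NOS1 replicates 1 and 4 are highest in the first 5 genes, and IGFBP3 also reaches 21.9 and 13.1 CPM in IBD replicates 3 and 4.

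CD44 (ENSG00000026508.18, chr11:35138870-35232402, + strand) is the hyaluronan receptor. CD44 stood at 57.1, 10.0, 5.68 and 40.3 CPM in NOS1 replicates 1 to 4, at 12.1, 4.52, 8.78 and 9.88 CPM in the same order in VOS2, at 10.0, 17.6, 9.43 and 19.2 CPM in IBD and at 0 to 0.142 CPM in VOS1. NOS1 replicates 1 and 4 were highest, NOS1 replicate 2 lay among the VOS2 and IBD values, and those overlapped. Its log2 fold change of IBD over VOS2 was 0.70 ± 0.29 (SE, edgeR adjusted p = 0.184). In a list of 13 genes of CD44 and hyaluronan, 2 were members (CD44 and MSN); of the 11 others 7 were tested in IBD against VOS2, with 0 higher and 1 lower (EZR). HYAL1, a hyaluronidase picked after its values were seen, was 28.9, 5.59, 2.37 and 14.8 CPM in NOS1 but 4.16 to 6.67 CPM in VOS1 and so is no member.

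SRGN, the serglycin core protein of secretory granule proteoglycans that can bind CD44, was 1 of the 3 members higher in IBD than in VOS2. In NOS1 replicates 1 to 4 SRGN had 46.5, 10.0, 3.04 and 32.1 CPM, in VOS2 (same order) 8.53, 3.99, 5.21 and 7.69 CPM, in IBD 13.1, 19.1, 9.93 and 19.7 CPM and in VOS1 0 to 0.0915 CPM. All 4 IBD libraries lay above all 4 VOS2 libraries, although they stayed below NOS1 replicates 1 and 4. The means were 15.5 ± 4.77 CPM in IBD and 6.36 ± 2.12 in VOS2 (SD, n = 4), and SRGN was 2.49-fold higher in IBD (log2 1.31 ± 0.26 SE, edgeR adjusted p = 0.0100).

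IGFBP3, the main carrier of insulin-like growth factors in plasma, broke the shared order. The IGFBP3 level was 68.9, 4.33, 1.60 and 15.7 CPM in NOS1 replicates 1 to 4, 3.07, 1.19, 1.416 and 1.92 CPM in VOS2 replicates 1 to 4, 1.99, 1.56, 21.9 and 13.1 CPM in IBD replicates 1 to 4 and 0 CPM in VOS1. NOS1 replicate 1 was highest, but IBD replicate 3 came next, above NOS1 replicate 4, while IBD replicates 1 and 2 stayed within the VOS2 range. The mean in IBD was 9.64 ± 9.78 CPM against 1.90 ± 0.84 in VOS2, and the log2 fold change of 2.36 ± 0.70 (SE) did not pass the threshold (edgeR adjusted p = 0.0717).

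SMOC1, a secreted calcium-binding matrix protein, and EFEMP1, the matrix protein fibulin-3, kept the common order. Across replicates 1 to 4, SMOC1 was measured at 63.4, 6.10, 2.84 and 23.99 CPM in NOS1, 6.68, 2.38, 3.97 and 6.57 CPM in VOS2, 3.15, 4.74, 3.14 and 5.46 CPM in IBD and 0.183 to 0.284 CPM in VOS1. EFEMP1 stood at 51.6, 8.84, 2.99 and 36.2 CPM in NOS1 replicates 1 to 4, at 8.64, 2.44, 4.65 and 7.10 CPM in the same order in VOS2, at 5.82, 8.76, 5.27 and 12.0 CPM in IBD and at 0 to 0.115 CPM in VOS1. In both, NOS1 replicate 4 was above every VOS2 and IBD library and VOS2 overlapped IBD. Their log2 fold changes of IBD over VOS2 were -0.22 ± 0.30 and 0.51 ± 0.34 (SE), with edgeR adjusted p of 0.737 and 0.434.

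The remaining surface and matrix members were CSPG4 (the NG2 proteoglycan), FBN1 (fibrillin-1 of microfibrils), COL4A4 (a basement membrane collagen chain), HTRA1 (a secreted serine protease), OLFM1, ANTXR1 (an anthrax toxin receptor), EMB (a partner of monocarboxylate transporters), LYPD3, MUC16 (the CA125 mucin), ROBO1 (a Slit receptor) and CHST15 (a chondroitin sulfotransferase). The 16 members of this role had a median of 48.5% in NOS1 replicate 4, 14.0% in NOS1 replicate 2, 11.8% ± 4.69 in VOS2 and 14.0% ± 4.03 in IBD. In IBD against VOS2, 1 was higher and 0 lower. ROBO1 had 3.57 to 4.45 CPM in VOS2 and 3.01 to 3.50 CPM in IBD, which do not overlap, but the test gave a log2 fold change of -0.23 ± 0.17 (SE, edgeR adjusted p = 0.482).

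OSMR (ENSG00000145623.12, chr5:38845858-38945596, + strand) encodes the oncostatin M receptor. In NOS1 replicates 1 to 4 OSMR had 91.4, 9.18, 4.39 and 40.6 CPM, in VOS2 (same order) 13.4, 3.69, 7.19 and 11.2 CPM, in IBD 9.03, 14.3, 12.6 and 20.5 CPM and in VOS1 0 to 0.307 CPM. Both NOS1 replicates 1 and 4 were highest and the other 3 sets of values overlapped, NOS1 replicate 2 among them. The log2 fold change of IBD over VOS2 was 0.70 ± 0.33 (SE, edgeR adjusted p = 0.245). LIFR, which also receives oncostatin M, was highest in the same static replicates. The LIFR level was 69.2, 8.44, 3.30 and 36.0 CPM in NOS1 replicates 1 to 4, 9.81, 3.81, 5.72 and 9.88 CPM in VOS2 replicates 1 to 4, 4.27, 8.20, 6.28 and 10.5 CPM in IBD replicates 1 to 4 and 0.604 to 1.03 CPM in VOS1. Only NOS1 replicates 1 and 4 stood apart for LIFR among these 12 libraries, and its log2 fold change of IBD over VOS2 was 0.04 ± 0.31 (SE, edgeR adjusted p = 0.965).

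The shared signal chain IL6ST did not follow its partners. IL6ST stood at 29.8, 24.6, 29.6 and 37.1 CPM in NOS1 replicates 1 to 4, with replicates 1 and 3 nearly equal, and at 66.2 to 157 CPM in VOS1. In IBD it was higher than in VOS2 by 0.60 ± 0.10 on the log2 scale (SE, edgeR adjusted p = 0.00454), with 43.0 to 51.8 CPM against 28.1 to 35.5. Of the 16 listed genes of this receptor family, 2 were members; of the 14 others 10 were tested, with 1 higher (IL6ST) and 0 lower. The cytokine IL6, no member and picked after its values were seen, had 18.5 times the CPM in NOS1 replicate 1 that it had in replicate 3. Over the 10 non-members of this list with a mean of 1 CPM or more in NOS1, the median of that ratio was 1.26.

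NIBAN1, a stress-response regulator of translation, was 1 of the members with higher values in VOS2 than in IBD. Across replicates 1 to 4, NIBAN1 was measured at 63.8, 13.7, 6.86 and 57.0 CPM in NOS1, 14.7, 6.13, 10.3 and 14.4 CPM in VOS2, 5.97, 8.25, 5.61 and 7.91 CPM in IBD and 0 to 0.0915 CPM in VOS1. NOS1 replicate 4 was near NOS1 replicate 1, and VOS2 and IBD overlapped through VOS2 replicate 2. The log2 fold change of IBD over VOS2 was -0.68 ± 0.24 (SE, edgeR adjusted p = 0.126).

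FAM83A, linked to epidermal growth factor receptor signalling, was higher in IBD. FAM83A stood at 16.6, 1.71, 0.568 and 5.53 CPM in NOS1 replicates 1 to 4, at 1.11, 0.535, 1.76 and 2.06 CPM in the same order in VOS2, at 2.43, 2.96, 3.42 and 5.40 CPM in IBD and at 0.0915 to 0.179 CPM in VOS1. The 4 IBD libraries lay above the 4 VOS2 libraries, and IBD replicate 4 was close to NOS1 replicate 4. FAM83A was 2.66-fold higher in IBD (log2 1.41 ± 0.36 SE, edgeR adjusted p = 0.0379). The call rested on several libraries: the adjusted p was 0.131 without IBD replicate 4, 0.119 without VOS2 replicate 1, and from 0.0164 to 0.131 over all libraries left out in turn.

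Other receptors and signalling members were NPR1 (a natriuretic peptide receptor), ENG (a co-receptor of the transforming growth factor beta family), WNT5A (a Wnt ligand), FYN (a Src family kinase), SIK1 (a salt-inducible kinase), DOK7 (an activator of the muscle kinase MuSK), GNB4 (a G protein beta subunit) and PPP2R2C (a phosphatase 2A subunit). The 12 had medians of 65.5% in NOS1 replicate 4, 17.1% in NOS1 replicate 2, 13.8% ± 4.20 in VOS2 and 14.6% ± 3.02 in IBD. In IBD against VOS2 1 was higher and 0 lower. DOK7 did not overlap, with 2.14 to 4.71 CPM in VOS2 and 1.95 to 2.08 in IBD, at a log2 fold change of -0.77 ± 0.25 (SE, edgeR adjusted p = 0.0911).

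Among 11 members of the interferon response and innate immunity, PSMB8 and PSMB9 are immunoproteasome subunits, NLRC5 switches on MHC class I genes, UBE2L6 and HERC5 attach ISG15, IFIT5 and DDX60L are interferon-induced, CASP1 is the inflammasome protease, CARD14 activates NF-kappa-B in keratinocytes, LY6E is an interferon-induced surface protein and CFD is complement factor D. Their medians were 70.8% in NOS1 replicate 4, 23.8% in NOS1 replicate 2, 18.4% ± 6.00 in VOS2 and 18.4% ± 4.77 in IBD. In IBD against VOS2, 0 passed the test in either direction. PSMB9 had 1.67 to 3.39 CPM in VOS2 and 3.40 to 4.35 in IBD without overlap, at a log2 fold change of 0.45 ± 0.22 (SE, edgeR adjusted p = 0.272). PSMB8 and PSMB9 lie in the MHC region, where TAP1 was listed at 0 in NOS1, and an effect of overlapping neighbours on these counts was not tested.

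In the listed genes of interferon and antigen presentation, 3 of 25 were members (PSMB8, PSMB9 and NLRC5), and 13 of the 22 others were tested in IBD against VOS2 with 3 higher and 0 lower. Among these were B2M, the light chain of MHC class I (log2 0.45 ± 0.09 SE, edgeR adjusted p = 0.0126), and TAPBP, which helps to load peptides (log2 0.68 ± 0.12 SE, edgeR adjusted p = 0.00477). Their ratios of NOS1 replicate 1 to replicate 3 were 1.32 and 1.84, whereas that of HLA-B, no member and picked after its values were seen, was 14.1.

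The 5 germline and cancer-testis members were MAGEA1, MAGEA3, LY6K, PRSS21 (testisin) and TDRD9 (a helicase of the piRNA pathway). Their medians were 67.1% in NOS1 replicate 4, 19.8% in NOS1 replicate 2, 9.79% ± 3.92 in VOS2 and 10.4% ± 2.75 in IBD, and 0 passed the test in IBD against VOS2. MAGEA1 had 19.3, 3.82, 1.03 and 15.6 CPM in NOS1 replicates 1 to 4 and at most 0.0446 CPM in VOS1.

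The 8 members that act in transcription and chromatin were FOXE1 (a thyroid factor), SIX2 (a kidney progenitor factor), GLI2 (a Hedgehog effector), HR (a corepressor of hair follicles), CDYL2 (a chromodomain protein), SMARCA2 (an ATPase of SWI/SNF), ZNF469 and SAMD11. Their medians were 55.3% in NOS1 replicate 4, 17.2% in NOS1 replicate 2, 11.8% ± 4.70 in VOS2 and 9.44% ± 2.58 in IBD, with 0 called in IBD against VOS2.

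CPS1, the mitochondrial carbamoyl phosphate synthetase of the urea cycle, had its own order within VOS2 and IBD. In NOS1 replicates 1 to 4 CPS1 had 253, 37.3, 18.0 and 95.5 CPM, in VOS2 (same order) 31.3, 21.6, 21.5 and 26.1 CPM, in IBD 21.6, 36.8, 22.8 and 31.5 CPM and in VOS1 0.355 to 1.65 CPM. The static replicates 1 and 4 were highest, as in most members, but IBD replicate 2 was the highest of IBD and replicate 1 the lowest, and VOS2 overlapped IBD. The log2 fold change of IBD over VOS2 was 0.20 ± 0.18 (SE, edgeR adjusted p = 0.575). BACE2, an aspartyl protease related to beta-secretase, was also highest in those static replicates. The BACE2 level was 82.1, 14.0, 4.39 and 49.9 CPM in NOS1 replicates 1 to 4, 12.5, 3.27, 8.67 and 10.9 CPM in VOS2 replicates 1 to 4, 6.60, 11.0, 6.12 and 13.4 CPM in IBD replicates 1 to 4 and 0.320 to 0.759 CPM in VOS1. NOS1 replicate 2 was above all VOS2 and IBD values for BACE2, which overlapped each other (log2 0.10 ± 0.34 SE, edgeR adjusted p = 0.902).

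SELENOM, a selenoprotein of the endoplasmic reticulum, was the third member higher in IBD than in VOS2. Across replicates 1 to 4, SELENOM was measured at 12.4, 3.25, 1.03 and 8.82 CPM in NOS1, 2.01, 0.892, 1.70 and 1.46 CPM in VOS2, 3.01, 4.68, 2.86 and 4.54 CPM in IBD and 0.274 to 0.675 CPM in VOS1. The IBD libraries lay above the VOS2 libraries without overlap and around NOS1 replicate 2. SELENOM was 2.52-fold higher in IBD (log2 1.33 ± 0.27 SE, edgeR adjusted p = 0.0126). Leaving out IBD replicate 4 gave an adjusted p of 0.0530, and the range over all libraries left out in turn was 0.00996 to 0.0530.

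MGAT5B, a branching N-acetylglucosaminyltransferase best known in brain, was the only member called against the static libraries in the edgeR fits of the groups compared, though not under all alternatives. MGAT5B stood at 10.3, 1.88, 0.619 and 5.73 CPM in NOS1 replicates 1 to 4, at 1.38, 0.952, 1.19 and 1.59 CPM in the same order in VOS2, at 0.582, 0.613, 0.617 and 0.675 CPM in IBD and at 0.320 to 0.625 CPM in VOS1. The 4 IBD values lay close together, below all VOS2 values and below NOS1 replicates 1, 2 and 4, at about the level of NOS1 replicate 3. They rest on only 12, 11, 11 and 11 counts in IBD replicates 1 to 4, against 16 to 26 counts in VOS2, so their closeness does not show a precise level. The log2 fold change of IBD over NOS1 replicates 2 and 4 was -2.57 ± 0.42 (SE, edgeR adjusted p = 0.0439). It was -1.001 ± 0.28 over VOS2, with an adjusted p of 0.0573. Against NOS1 the adjusted p was 0.411 without NOS1 replicate 4 and ran from 0.00322 to 0.411 over the libraries left out in turn.

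The other enzymes, transporters and channels were PTGS1 (cyclooxygenase-1), CPA4 (a carboxypeptidase), CTSF (cathepsin F), SLC43A3, SLC22A15 and SLC16A7 (transporters, the last of monocarboxylates), KCNK1 (a potassium channel), TUSC3 (an oligosaccharyltransferase subunit), MT1E (a metallothionein) and TMTC1 (an O-mannosyltransferase). The 14 had medians of 67.6% in NOS1 replicate 4, 17.6% in NOS1 replicate 2, 11.8% ± 3.61 in VOS2 and 11.8% ± 3.58 in IBD, with 1 higher and 0 lower in IBD against VOS2. MT1E varied within VOS2, at 2.17, 0.595, 4.14 and 9.48 CPM in replicates 1 to 4.

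PCAT1, a long noncoding RNA named for prostate cancer, and LINC02582 stand for the noncoding members. The span of PCAT1 overlaps 11 annotated genes, 2 of them protein-coding, so its counts are uncertain to that degree. Its feature length was 862730 bp in NOS1 and 18492 bp in VOS1. In NOS1 replicates 1 to 4 PCAT1 had 229, 31.1, 12.1 and 167 CPM, in VOS2 (same order) 33.3, 11.5, 19.4 and 30.4 CPM, in IBD 12.9, 14.7, 10.4 and 21.0 CPM and in VOS1 0.446 to 0.997 CPM. The LINC02582 level was 50.2, 5.30, 1.75 and 22.3 CPM in NOS1 replicates 1 to 4, 5.99, 2.38, 5.27 and 7.43 CPM in VOS2 replicates 1 to 4, 4.51, 7.08, 3.65 and 9.14 CPM in IBD replicates 1 to 4 and 0 to 0.134 CPM in VOS1. For both, NOS1 replicates 1 and 4 were highest, and for PCAT1 the IBD values overlapped the lower end of VOS2 (log2 -0.65 ± 0.29 SE, edgeR adjusted p = 0.221). For LINC02582 IBD and VOS2 overlapped (log2 0.25 ± 0.33 SE, edgeR adjusted p = 0.726). The rest were LINC00958, LINC02733, LINC01989, LINC03078, LINC00472, FENDRR, FBXO38-DT, the pseudogene UBBP4 and the unnamed ENSG00000287263 and ENSG00000286966, all 12 with medians of 46.2% in NOS1 replicate 4, 14.3% in NOS1 replicate 2, 11.5% ± 4.66 in VOS2 and 12.9% ± 3.00 in IBD. In IBD against VOS2, 0 passed the test.

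Outside these roles were RAB34 (a GTPase of cilium formation), NCCRP1, RNF182, SPART (spartin), VWA5A, SYT12 (a synaptotagmin) and JSRP1 (a sarcoplasmic reticulum protein). These 7 had medians of 49.3% in NOS1 replicate 4, 14.1% in NOS1 replicate 2, 10.2% ± 3.47 in VOS2 and 10.8% ± 2.60 in IBD, with 0 called in IBD against VOS2. NOS1 replicate 4 was above NOS1 replicate 2 in all 96 members, so the same order of their medians in each of the 9 roles follows from that and adds nothing.

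**Figure D4:**
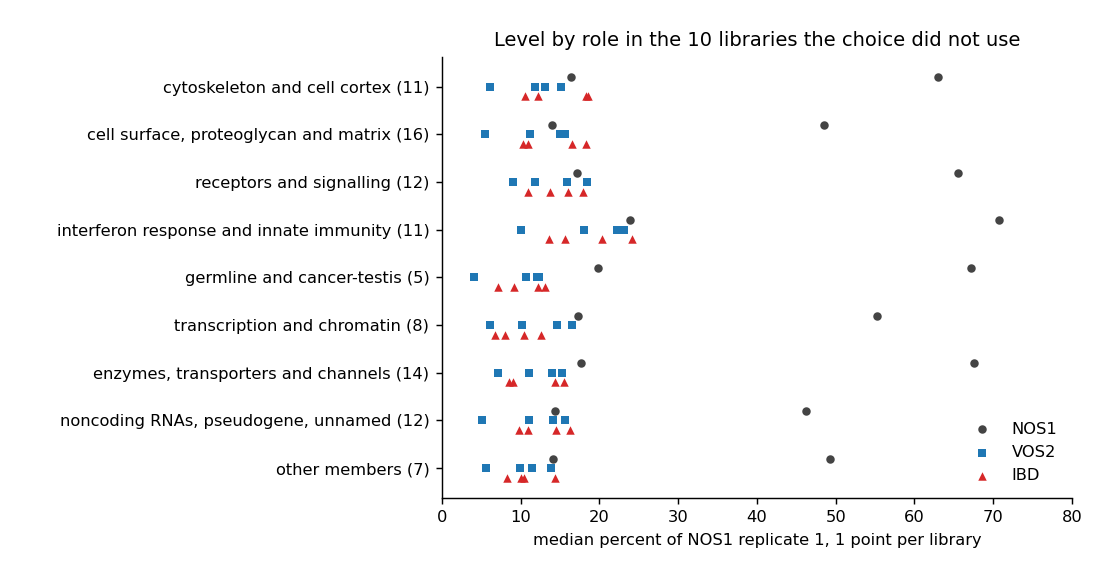
Median percentage of NOS1 replicate 1 for each role (number of members in brackets) in the 10 libraries the choice did not use, 1 point per library. In every role 1 NOS1 point (replicate 4) lies at 46.2% to 70.8%, and the other points lie at 4.01% to 24.2%.

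Over all members, few passed the test between the IBD induction and VOS2. In edgeR's quasi-likelihood fit of these 8 libraries, 3 of 96 members were higher in IBD (SRGN, SELENOM and FAM83A), against 2.79% of 14322 genes, and 0 of 96 were lower, against 2.62%. At an unadjusted p under 0.05 there were 14 members, or 14.6%, against 20.6% of all genes, and DESeq2 called 3 higher and 0 lower. The median log2 fold change was 0.11 for the members and -0.01 for all genes, and single members ran from -1.001 (MGAT5B) to 2.36 (IGFBP3). The members' median had no stable sign: it was -0.12 without VOS2 replicate 2, -0.09 without IBD replicate 4, -0.03 without IBD replicate 2 and 0.27 without VOS2 replicate 1, and it was also over 1.5 times as large without IBD replicate 1 (0.24), IBD replicate 3 (0.24) or VOS2 replicate 4 (0.22). Libraries did not overlap for 5 members higher in IBD (KRT7, SRGN, FAM83A, PSMB9 and SELENOM), against 4.74% of 13255 genes, and for 3 lower (ROBO1, DOK7 and MGAT5B), against 8.71%. Without IBD replicate 2, 5 members were called higher, against 809 of 14606 genes, and without IBD replicate 4 it was 1, against 200 of 14618. With no filter on low counts 9 were higher, against 805 of 26234 genes. In 1 fit of all 16 libraries, whose spread draws on the values that chose the members, 0 were, against 277 of 17123. Without VOS2 replicate 2, 3 members were lower, against 287 of 14602 genes. The number called over all genes thus moved as well.

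**Figure D5:**
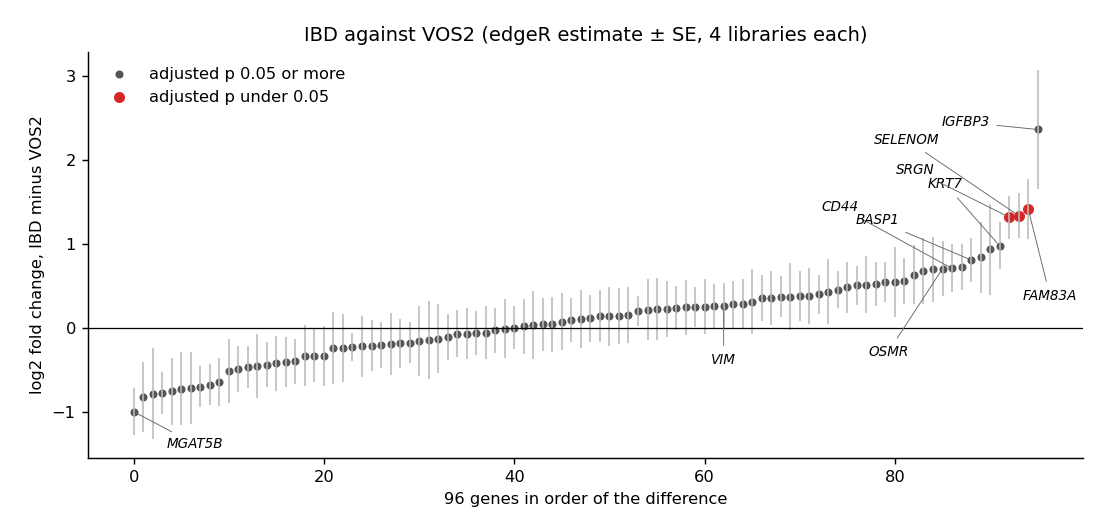
Log2 fold change of IBD over VOS2 for the 96 genes in order of size (edgeR estimate ± SE, 4 libraries each), with members past an adjusted p of 0.05 in red. The 3 red points lie at 1.31 to 1.41, and IGFBP3 at 2.36 has the widest error bar.

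Against the 2 free static libraries, every member had a lower estimate in VOS2. VOS2 against NOS1 replicates 2 and 4 gave a median log2 fold change of -1.58 for the members and 0.00 for 14909 genes. edgeR called 0 members higher, against 0% of all genes, and 0 lower, against 0%. At an unadjusted p under 0.05 there were 87 members, or 90.6%, against 10.6% of all genes, and DESeq2 called 25 members lower, with 109 of 14909 genes lower in all. The members moved together and were chosen as high in another library of the same static group. They are not independent, so these shares are a description and no support for a difference between the groups. Without NOS1 replicate 4 the median was -0.37 and 0 members were called; without NOS1 replicate 2 it was -2.21 and 87 were called lower, of 539 lower among 15765 genes. Each of these fits has a single static library, assumed to vary like the VOS2 libraries, from which all of the spread comes.

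IBD against the same 2 static libraries gave a median log2 fold change of -1.47. There 0 of 96 members were higher, against 0.189% of 14817 genes, and 1 was lower (MGAT5B), against 0.128%. At an unadjusted p under 0.05 there were 75 members, or 78.1%, against 14.1% of all genes. Here too the members are not independent, and the share is a description. DESeq2 called 46 members lower, of 303 lower among 14817 genes. edgeR called 40 lower without IBD replicate 2, of 245 among 14716 genes, and 69 lower without NOS1 replicate 2, of 326 among 15668 genes. Without NOS1 replicate 4 the median was -0.40 with 0 called; where a NOS1 library is left out, the spread comes from the IBD libraries alone. Likewise 0 were called when IBD replicate 1, 3 or 4 was left out. The 2 contrasts share the static libraries, and IBD against VOS2 shares VOS2 with the first, so their values are not independent.

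Markers of other cell types were read beside the members. Of 12 fibroblast genes 7 stayed below 1 CPM in all 16 libraries, and the sum was 31.6 to 46.0 CPM in NOS1, 34.7 to 44.2 in VOS2 and 27.7 to 52.1 in IBD. Of 12 endothelial genes 7 did, with sums of 35.2 to 53.3, 34.7 to 39.0 and 34.4 to 49.4 CPM, and of 14 leukocyte genes 9 did, with sums of 12.1 to 17.5, 16.5 to 21.1 and 17.7 to 25.5 CPM. THY1, POSTN, KDR and TYROBP were at 0 in all 16 libraries, and 0 genes of these 3 lists had both 1 CPM or more in NOS1 replicate 1 and a ratio to replicate 3 of 4 or more. Neural, lung and stratified epithelial lists held 0 such genes as well. In a list of 9 urogenital and mesothelial genes, 2 had that ratio: MUC16, a member, and MSLN (mesothelin), with 73.5, 15.8, 8.20 and 30.6 CPM in NOS1 replicates 1 to 4 and 18.6 to 35.9 CPM in VOS1. The part of these markers in the members' levels was not tested.

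Keratins and mesenchymal genes gave a mixed picture. Of 14 keratins not typical of intestine, KRT7 was a member and KRT17 had the same static order, at 227, 44.6, 17.6 and 95.9 CPM in NOS1 replicates 1 to 4, but 9.69 to 22.3 CPM in VOS1. Only these 2 of the 14 had 1 CPM or more in NOS1 replicate 1 and a ratio to replicate 3 of 4 or more. In all 16 libraries 7 stayed below 1 CPM. The 4 that were no members and reached a mean of 1 CPM in NOS1 had a median ratio of 1.65. The intestinal keratins KRT8, KRT18, KRT19 and KRT20 had a median ratio of NOS1 replicate 1 to replicate 3 of 0.771. In 15 genes of intermediate filaments and mesenchymal transition, 7 had 1 CPM or more in NOS1 replicate 1 and a ratio of 4 or more (VIM, CDH2, ZEB1, ZEB2, SNAI2 and NT5E among them), while fibronectin (FN1) stood at 2178, 2324, 1637 and 1508 CPM in NOS1 replicates 1 to 4. Of the 14 other genes of that list 11 were tested in IBD against VOS2, with 2 higher (LOX and TGFBI) and 1 lower (SNAI1).

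The members lay on 22 chromosomes, with at most 9 on 1 of them (chromosome 11), so they form no single locus. In GENCODE v29, 94 were placed, 84 as protein-coding genes. No other gene overlapped 40 of them, and 54 overlapped at least 1, where counts without a known strand setting are uncertain. The 34 protein-coding members free of overlap had medians of 17.1% of NOS1 replicate 1 in NOS1 replicate 2 and 64.5% in replicate 4, 5.95% to 16.4% in VOS2 and 8.77% to 16.1% in IBD. These percentages were near those of all 96.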

How the data were processed

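Caco-2 mRNA of 16 libraries was measured in 4 tables of 4. Per the submitters' processing notes, the authors used STAR 2.7.11a and featureCounts 2.0.6 on build hg38, and list fastp 0.23.4, FastQC 0.12.1 and DESeq2 1.42.0; the strand setting and other options are not stated there. The deposited counts are raw counts per gene. The deposited FPKM values are scaled for feature length and library size by the authors, and served here for feature lengths and limma.

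The 96 members and all gene lists were chosen with earlier results of these data known, and the roles were assigned after the values were seen. Tests used edgeR 4.0.16 in R 4.3.3 (quasi-likelihood, TMM, filterByExpr), fitted on the whole tables for the groups compared, with Benjamini-Hochberg adjustment over all tested genes and a threshold of 0.05; all 96 members passed the filter on low counts in the comparison of IBD with VOS2. The procedure was tested on simulated data. Alternatives used other scaling and filters, DESeq2 1.42.0, limma 3.58.1, other sets of libraries, a replicate block, left-out libraries and other limits on the members. Full values per library go to KRT7, VIM, CD44, BASP1 and OSMR, to the 10 other members highest in NOS1 replicate 1, and to members past a test. Values of a few listed genes that are not members are not reported here.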

Additional observations from a re-analysis of the deposited data

How the results depend on the processing

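In IBD against VOS2, the 3 members called higher became 9 (with 2 lower) with no filter on low counts. Over all 26234 genes there, 805 were higher and 537 lower. The number called higher was 1 with limma on log2(FPKM + 1) or log2(FPKM + 0.1), of 189 and 204 among 14322 genes. In 1 fit of all 16 libraries, which holds the values that chose the members, it was 0, of 277 among 17123 genes. With a library left out in turn, 1 to 5 members were called higher and 0 to 3 lower. Over all genes, 185 to 809 were then higher and 181 to 595 lower. In VOS2 against NOS1 replicates 2 and 4, the 0 called lower became 87 with no filter, of 517 lower among 25615 genes. With DESeq2 it became 25, of 109 lower among 14909 genes, and it stayed 0 with a VOS2 library left out. The median log2 fold change ran from -2.21 to -0.37 with a library left out and was -0.18 with limma on log2(FPKM + 1), a scale that shrinks low genes by construction. In IBD against NOS1 replicates 2 and 4, the 1 called lower became 77 with no filter, of 646 lower among 25215 genes. It became 46 with DESeq2, of 303 among 14817 genes, and 39 in a fit of 10 libraries, of 294 among 15355. In the fit of 16 it was 29, of 320 among 17123 genes (a count that draws on the choosing values and is no support). It was 0 with at least 1 CPM in 4 libraries, of 10 among 12754 genes, and with limma at both offsets, of 0 among 14817. With a library left out, 0 to 69 were called, with a median from -2.12 to -0.40, and limma on log2(FPKM + 1) gave -0.15. With a library left out, the log2 fold change of IBD over NOS1 ran from -1.74 to 0.11 for KRT7, -1.46 to 0.49 for CD44, -1.82 to 0.14 for BASP1 and -1.47 to 0.62 for OSMR, reversed in each without NOS1 replicate 4 and lowest without replicate 2. A floor of 5 CPM in NOS1 replicate 1 took 191 members, and keeping only protein-coding members without overlap, a choice made after seeing the data, left 34. The cause of these changes was not tested.

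With a replicate block, 79 members were called lower in VOS2 against NOS1, of 304 lower among 14909 genes. In IBD against NOS1 0 were, of 0 among 14817 genes, and 2 were higher in IBD against VOS2, of 162 among 14322. Libraries of the same number in VOS2 and IBD had deviations correlated at 0.004 (replicate 1), -0.25, -0.12 and -0.02 over 14322 genes. No clear positive correlation by number was thus seen between VOS2 and IBD. The NOS1 libraries were not checked in this way. Of the recomputed summary values, 161 moved by less than 1.5 times or the spread between replicates, and 32 moved further. That spread is wide for the median log2 fold changes. The medians of IBD over VOS2 that changed sign are therefore among the 161, which are not all stable. Each test against NOS1 had only 2 static libraries; an effect of depth was not tested.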
